A study of Mus musculus with 12 samples.

Results

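A set of 10 genes of the contractile and actin cytoskeleton was followed through cultures of a mouse tumour treated with immune antibodies or with interferon-gamma: the sarcomere genes Ttn and Tnnt2, the smooth muscle genes Acta2, Tagln, Myl9 and Cnn1, the tropomyosins Tpm1, Tpm2 and Tpm4, and the alpha-actinin Actn1. They were chosen by gene symbol, 10 genes of the 16399 listed in at least 1 of 5 comparison tables. Of these, 9 stood in all 5 tables, and Cnn1 stood in 4, without aPD-1+CD8 v IgG. The cultures came from MC38 tumours, a transplantable colon carcinoma line, of C57BL/6 albino mice. Tumours were dissociated, and fragments of 40 to 100 µm were grown in collagen at 2.8 mg/mL inside microfluidic chips for 6 days, after which total RNA was captured on exome probes and sequenced. The aPD-1+CD8 group received the PD-1 antibody RMP1-14 and a CD8 antibody, each at 10 µg/mL. The IFNg group received interferon-gamma at 100 ng/mL, and the labels name no antibody there. The aPD-1 group received RMP1-14 alone at 10 µg/mL, and the IgG group the control antibody 2A3 at 10 µg/mL. Each group had 3 samples, and the labels do not say whether they came from separate animals or cultures. The p-values therefore speak of the spread among these libraries alone, and that spread may be technical.

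Actin filaments are built from actin monomers, and tropomyosin dimers lie along them and set which myosins and binding proteins gain access. In muscle the filaments are ordered into sarcomeres, which titin spans as a molecular spring and in which the troponin complex couples calcium to contraction. Outside muscle the same families build stress fibres, which alpha-actinin cross-links. Smooth muscle actin, transgelin and calponin are widely used as marks of smooth muscle cells and of contractile fibroblasts, which occur in the stroma of many tumours.

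The files hold the authors' own DESeq2 comparisons, so no value of a single library was used and the spread between libraries is seen only through the standard error (SE) of each fold change. In each comparison name the group before the v is the numerator of the log2 fold change, and the fold changes look shrunken toward 0. The SEs of aPD-1+CD8 v IgG were small too, with a largest value of 0.110. Among genes with a mean count under 10 the median SE there was 0.0217. A small SE or narrow interval at a low count in that comparison is thus no sign of a precise value. A gene was counted as changed at an adjusted p under 0.05 over its whole table. To show levels, the mean of the 3 samples of each group was solved from the deposited mean counts, since each table gives the mean over 6 libraries of a pair of groups, and those means overlap. The solution needed the tables on a common scale, with factors between 0.872 and 1 taken from 5706 genes whose mean count reached 100 in each table. IgG and aPD-1 could be solved in 2 ways, which differed by a median of 0.519% in IgG and 0.507% in aPD-1 over those genes. Both ways use the aPD-1 v IgG means and the same libraries of these groups. Their closeness thus checks the scaling between tables alone and not the levels. These solved levels, in normalized counts, carry no error of their own. Deposited fold changes came to 0.948 of the solved ones in log2 in aPD-1 v IgG, 0.927 in aPD-1+CD8 v aPD-1, 0.939 in IFNg v aPD-1, 0.795 in IFNg v IgG and 0.533 in aPD-1+CD8 v IgG (slope across genes), so sizes are least comparable in the last table. RNA came from whole cultures, where fewer cells of a type and less RNA per cell cannot be told apart.

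Promoter sequence was available from RefSeq (GRCm38.p6) for 9 of the 10 genes in 10 windows, each running from 250 bases before to 50 after an annotated start. Tagln was not matched. The windows were searched on both strands for the CArG box, which the serum response factor binds in many contractile genes. It was searched in its strict form alone, CC and GG around a fixed run of A or T. Looser forms and sites outside the windows were not searched. The TEAD site GGAATG, the AP-1 site TGANTCA and the interferon-gamma activated site TTCNNNGAA were searched likewise on both strands. The strict CArG box was found for Myl9, against 1.63% of all 32851 windows. The TEAD site was found for Ttn, Tnnt2, Acta2 and Tpm1, against 14.7% of all windows. The AP-1 and interferon-gamma sites were found in 0 of the 10 windows, against 7.81% and 8.30% of all. A match is a stretch of letters and not a measured binding site. Of the genes with a TEAD match, Ttn, Tnnt2 and Tpm1 fell in aPD-1 v IgG, and Acta2 did not pass. Actn1, for which no match was found, fell there too. In IFNg v IgG Ttn and Tnnt2 fell, Acta2 rose and Tpm1 did not pass. Among the TEAD-matched genes Ttn alone passed in aPD-1+CD8 v aPD-1 and Tpm1 alone in IFNg v aPD-1, and both rose. A link between a match and a call was not tested. Myl9, the only gene with a strict CArG match in its window, passed in no comparison. Its mean counts in the authors' deposited tables lay between 5.30 and 8.85, where a change is hard to detect. Nothing on the CArG box is therefore read from it. The stretches that end before the start are shown 5′ to 3′ on the gene's strand, motif in capitals (CATTCC is GGAATG on the other strand):
Tnnt2 (chr1:135836287-135836332, plus strand): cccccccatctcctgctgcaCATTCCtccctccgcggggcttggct
Acta2 (chr19:34255494-34255539, minus strand): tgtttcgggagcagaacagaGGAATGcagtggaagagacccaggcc
Tpm1 (chr9:67049244-67049289, minus strand): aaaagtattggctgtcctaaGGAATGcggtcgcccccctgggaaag
Myl9 (chr2:156775283-156775332, plus strand): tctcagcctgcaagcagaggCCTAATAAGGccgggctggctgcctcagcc

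Ttn, which encodes titin, fell in aPD-1 and in IFNg cultures against IgG, and its fall in aPD-1 was the largest deposited change of the set. Its solved level was 1654 normalized counts in aPD-1+CD8, 522 in IFNg, 361 in aPD-1 and 2217 in IgG. The second solution gave 358 in aPD-1 and 2220 in IgG. The IFNg and aPD-1 cultures thus lay well under the other groups. Ttn in the authors' deposited table for aPD-1 v IgG fell by 2.51 ± 0.21 (SE) in log2 with an adjusted p of 4.7e-31 (DESeq2), the gene of rank 38 by p. It rose in the authors' deposited table for aPD-1+CD8 v aPD-1 by 2.15 ± 0.18 (adjusted p = 1.8e-29; rank 21). With IFNg against IgG it fell by 1.17 ± 0.28 in the authors' deposited table (adjusted p = 0.0014), while the ratio of the solved levels was -2.09 in log2. Its value of 0.55 ± 0.26 in the authors' deposited table for IFNg v aPD-1 did not pass (adjusted p = 0.16), nor did that of -0.21 ± 0.11 in aPD-1+CD8 v IgG (adjusted p = 0.9998), where the solved ratio was -0.42. Titin has the longest transcript of the set, 106.8 kb in the GENCODE annotation. Per kb of that transcript its solved level was 15.5, 4.88, 3.38 and 20.8 normalized counts in aPD-1+CD8, IFNg, aPD-1 and IgG. The transcript expressed and the uptake by the probes were not analysed for Ttn. Its exons overlap an annotated antisense transcript, Gm13938, over 453 bases, and since no label gives the use of strand in counting, reads from either cannot be told apart there.

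Tnnt2, the cardiac form of troponin T, which anchors the troponin complex on tropomyosin, also fell in both the aPD-1 and the IFNg cultures against IgG. Its solved level was 122 normalized counts in aPD-1+CD8, 45.0 in IFNg, 73.8 in aPD-1 and 157 in IgG. The IFNg level was the lowest and the IgG level the highest. Tnnt2 in the authors' deposited table for aPD-1 v IgG fell by 1.04 ± 0.23 in log2 (DESeq2 adjusted p = 0.00013). With IFNg against IgG the authors' deposited table had it lower, and it fell by 1.26 ± 0.26 (adjusted p = 5.0e-05). Its values of 0.66 ± 0.28 in aPD-1+CD8 v aPD-1 (adjusted p = 0.097), -0.59 ± 0.35 in IFNg v aPD-1 (adjusted p = 0.30) and -0.14 ± 0.11 in aPD-1+CD8 v IgG (adjusted p = 0.9998) did not pass in the authors' deposited tables. Per kb of its longest coding transcript, 1.20 kb, the solved level of Tnnt2 was 102, 37.5, 61.5 and 131 normalized counts in aPD-1+CD8, IFNg, aPD-1 and IgG. These values lay above those of Ttn in every group, but with the same limits they do not rank the genes.

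**Figure D1:**
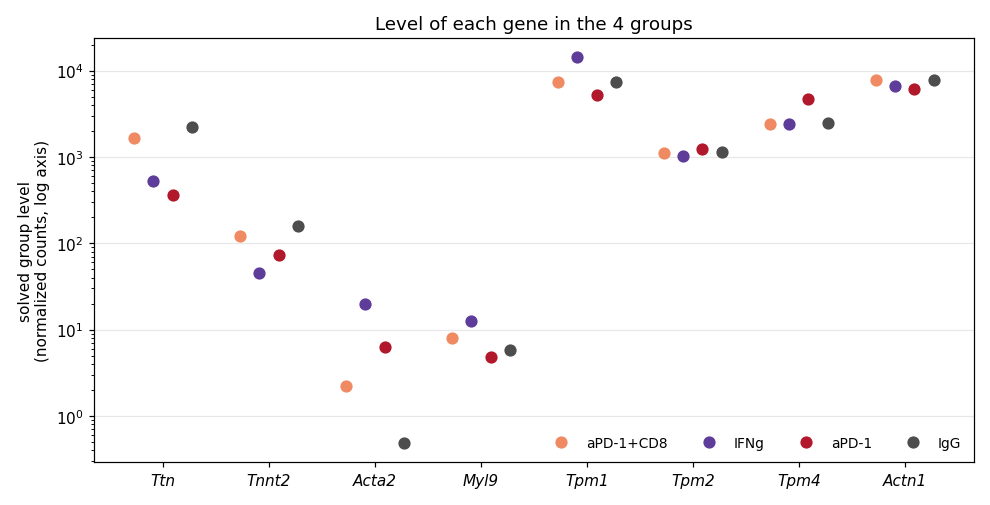
Solved group level of 8 of the genes in normalized counts on a log axis, each point the mean of the 3 samples of a group without error. Ttn is at 361 in aPD-1 and 522 in IFNg under 1654 in aPD-1+CD8 and 2217 in IgG, while Tpm4 is highest in aPD-1, at 4709, and Tpm1 highest in IFNg, at 14316.

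The smooth muscle genes had low counts in these captured libraries, and among them Acta2 alone changed in any comparison. Acta2, which encodes smooth muscle alpha-actin, had a solved level of 2.22 normalized counts in aPD-1+CD8, 19.8 in IFNg, 6.32 in aPD-1 and 0.484 in IgG, where the second solution gave 0.388. It was thus highest in IFNg and near 0 in IgG. With IFNg against IgG it rose in the authors' deposited table by 1.19 ± 0.27 in log2 (DESeq2 adjusted p = 0.00043) at a mean count of 9.77. Its values of 0.93 ± 0.39 in aPD-1 v IgG (adjusted p = 0.080), 1.13 ± 0.47 in IFNg v aPD-1 (adjusted p = 0.087), -0.53 ± 0.41 in aPD-1+CD8 v aPD-1 (adjusted p = 0.46) and 0.02 ± 0.02 in aPD-1+CD8 v IgG (adjusted p = 0.9998) did not pass in the authors' deposited tables. No fold is taken from the solved levels, because that of IgG lies near 0. Of its stretches of 50 bases 0.353% also occur in Actg1 or in actin pseudogenes. The cytoplasmic actin Actb, named after its values were seen, had a mean count between 89786 and 107362 in the authors' deposited tables, and its adjusted p was between 0.44 and 0.9998.

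Myl9, the regulatory light chain of smooth muscle myosin, had a solved level of 8.01 normalized counts in aPD-1+CD8, 12.5 in IFNg, 4.81 in aPD-1 and 5.78 in IgG. It was highest in IFNg, and no comparison passed. Its largest deposited value, in the authors' deposited table for IFNg v aPD-1, was 0.83 ± 0.49 in log2 (DESeq2 adjusted p = 0.29), and its 95% interval ran from -0.14 to 1.80. Tagln, which encodes the actin cross-linker transgelin, had mean counts between 0.444 and 1.09 in the authors' deposited tables and a tested p in aPD-1+CD8 v IgG alone (adjusted p = 0.9998). Its exons overlap those of Pcsk7 and of Gm48529 on the opposite strand, over 1349 bases. Cnn1, which encodes calponin, an inhibitor of myosin's ATPase, had mean counts between 0.111 and 0.726 in the authors' deposited tables and was tested in none. Changes of Tagln and Cnn1 were not detectable here.

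Among the tropomyosins, Tpm4 rose and Tpm1 fell in aPD-1 against IgG, Tpm1 rose in IFNg against aPD-1, and Tpm2 passed in no comparison. Tpm4, a tropomyosin of stress fibres outside muscle, had a solved level of 2403 normalized counts in aPD-1+CD8, 2414 in IFNg, 4709 in aPD-1 and 2482 in IgG. The aPD-1 group was alone in its level, and the other 3 lay close together. Tpm4 rose by 0.88 ± 0.13 in log2 per the authors' deposited table for aPD-1 v IgG (DESeq2 adjusted p = 1.3e-09). It fell by 0.91 ± 0.19 in aPD-1+CD8 v aPD-1 (adjusted p = 5.6e-05) and fell by 0.94 ± 0.19 in IFNg v aPD-1 (adjusted p = 1.9e-05), both per the authors' deposited tables. Against IgG its values in the authors' deposited tables were -0.06 ± 0.16 with IFNg (adjusted p = 0.98), with a 95% interval from -0.38 to 0.26, and -0.03 ± 0.11 with aPD-1+CD8 (adjusted p = 0.9998). Of the stretches of 50 bases in its longest coding transcript, 12.1% also occur in the pseudogene Gm7809, so a part of its reads could be assigned to either, depending on how the authors counted, and an antisense transcript, Gm26586, overlaps it over 134 bases.

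Tpm1, the tropomyosin gene whose isoforms serve both striated muscle and other cells, had a solved level of 7454 normalized counts in aPD-1+CD8, 14316 in IFNg, 5246 in aPD-1 and 7344 in IgG. The IFNg level stood apart upward, and the aPD-1 level was the lowest. Tpm1 in the authors' deposited table for aPD-1 v IgG fell by 0.50 ± 0.13 in log2 (DESeq2 adjusted p = 0.0018), and with IFNg against aPD-1 it rose by 1.34 ± 0.27 (adjusted p = 1.2e-05). The value of 0.53 ± 0.28 in the authors' deposited table for IFNg v IgG did not pass (adjusted p = 0.45), though the solved levels differed by 0.96 in log2. That of 0.49 ± 0.22 in aPD-1+CD8 v aPD-1 (adjusted p = 0.14) and that of 0.01 ± 0.11 in aPD-1+CD8 v IgG (adjusted p = 0.9998) did not pass either, per the authors' deposited tables.

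Tpm2, the beta-tropomyosin, had a solved level of 1113 normalized counts in aPD-1+CD8, 1029 in IFNg, 1230 in aPD-1 and 1149 in IgG. Its values ran in the authors' deposited tables from -0.25 ± 0.17 in log2 in IFNg v aPD-1 (DESeq2 adjusted p = 0.37) to 0.07 ± 0.14 in aPD-1 v IgG (adjusted p = 0.82). The 95% interval in aPD-1 v IgG ran from -0.21 to 0.35. Tpm3, the remaining mammalian tropomyosin gene, named here after its values were seen, had solved levels of 3073, 3213, 3106 and 3150 normalized counts in aPD-1+CD8, IFNg, aPD-1 and IgG and a smallest adjusted p of 0.89 in the authors' deposited tables. The ratio of Tpm4 to Tpm1 in solved counts was 0.322 in aPD-1+CD8, 0.169 in IFNg, 0.898 in aPD-1 and 0.338 in IgG. The change of that ratio between groups was not tested. Tpm1 and Tpm2 shared no stretch of 50 bases with a transcript of any other gene.

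Actn1, which encodes the alpha-actinin of stress fibres and focal adhesions, had a solved level of 7789 normalized counts in aPD-1+CD8, 6714 in IFNg, 6077 in aPD-1 and 7889 in IgG. The aPD-1 level was the lowest of a narrow range. Actn1 in the authors' deposited table for aPD-1 v IgG fell by 0.39 ± 0.12 in log2 (DESeq2 adjusted p = 0.0059). Its values of 0.36 ± 0.15 in aPD-1+CD8 v aPD-1 (adjusted p = 0.087), -0.23 ± 0.14 in IFNg v IgG (adjusted p = 0.56), 0.14 ± 0.16 in IFNg v aPD-1 (adjusted p = 0.65) and -0.01 ± 0.10 in aPD-1+CD8 v IgG (adjusted p = 0.9998) did not pass in the authors' deposited tables. The paralogue Actn4, chosen after its values were seen, fell by 0.60 ± 0.13 in the authors' deposited table for aPD-1 v IgG (adjusted p = 0.00011) and rose by 0.57 ± 0.15 in aPD-1+CD8 v aPD-1 (adjusted p = 0.0024) and by 0.66 ± 0.15 in IFNg v aPD-1 (adjusted p = 0.00011). Actn1 shared 0.434% of its stretches of 50 bases with Actn4, and it overlaps a pair of antisense transcripts over 451 bases.

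**Figure D2:**
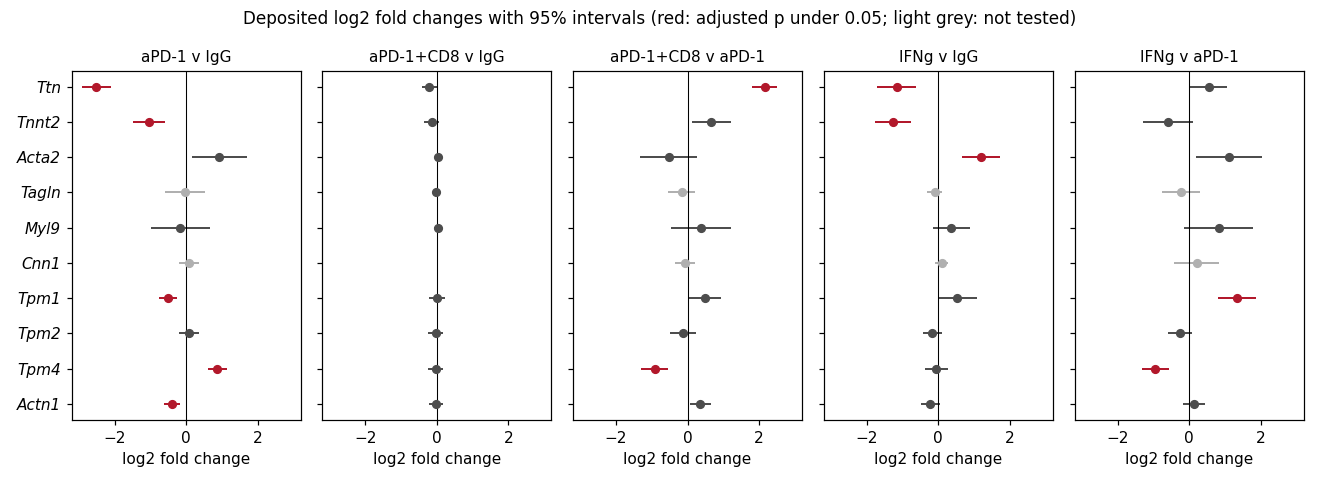
Deposited log2 fold change of each gene (numerator named first) with bars for the 95% interval (1.96 SE). Red points passed an adjusted p under 0.05, dark points did not, light grey points were not tested, and Cnn1 has no point in aPD-1+CD8 v IgG. Ttn changes sign between aPD-1 v IgG and aPD-1+CD8 v aPD-1, with Tpm4 opposite to it in each.

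By comparison, 8 of the genes were tested in each table but aPD-1+CD8 v IgG, where 9 were. With aPD-1 against IgG 1 gene rose, Tpm4, and 4 fell, Ttn, Tnnt2, Tpm1 and Actn1, beside 8.50% of all genes tested that rose and 10.0% that fell. With aPD-1+CD8 against aPD-1 1 rose, Ttn, and 1 fell, Tpm4, beside 7.82% and 6.94% of all genes. With IFNg against IgG 1 rose, Acta2, and 2 fell, Ttn and Tnnt2, beside 2.73% and 1.38%. With IFNg against aPD-1 1 rose, Tpm1, and 1 fell, Tpm4, beside 8.39% and 7.13%. With aPD-1+CD8 against IgG 0 genes of the set and 0% of all genes tested changed in either direction (DESeq2), and at an unadjusted p under 0.05 the counts were 0 of the set and 57 of all, while an empirical null called 0 of the set and 14 of all. The median deposited log2 change of the set was -0.09 in aPD-1 v IgG, 0.14 in aPD-1+CD8 v aPD-1, -0.08 in IFNg v IgG, 0.18 in IFNg v aPD-1 and -0.02 in aPD-1+CD8 v IgG, against medians of all genes between -0.02 and 0.01 over the authors' deposited tables. The comparisons share groups, so their values for a gene are not independent of each other. Against that empirical null, in which scores were divided by their own robust spread among well counted genes, Ttn passed in aPD-1 v IgG and aPD-1+CD8 v aPD-1, and Tnnt2 and Acta2 passed in IFNg v IgG. Under that null the adjusted p was 0.057 for Ttn in IFNg v IgG, 0.11 for Tpm4, 0.68 for Tnnt2, 0.95 for Tpm1 and 0.9998 for Actn1 in aPD-1 v IgG, 0.45 for Tpm4 in aPD-1+CD8 v aPD-1, and 0.29 for Tpm1 and 0.32 for Tpm4 in IFNg v aPD-1.

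Ttn and Tpm1 had larger standard errors in IFNg v IgG than most genes of like counts. The SE of Ttn in the authors' deposited table for IFNg v IgG was 0.278, above that of 98.9% of the 1701 genes with a mean count within 2-fold of its own, whose median was 0.145. The SE of Tpm1 was 0.279 there, above 99.6% of 228 such genes with a median of 0.137. The largest SE in that table was 0.281. With aPD-1 against IgG the SE of Tpm1 in the authors' deposited table was 0.133, above 32.7% of 477 such genes, while that of Ttn was 0.208, above 98.8% of 1774. The high SE of Tpm1 was not particular to IFNg v IgG. It lay above 97.7% of such genes in IFNg v aPD-1, 97.0% in aPD-1+CD8 v aPD-1 and 99.2% in aPD-1+CD8 v IgG. For Ttn these shares were 94.2%, 62.5% and 99.2%. Which libraries gave the wide spread was not analysed here.

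**Figure D3:**
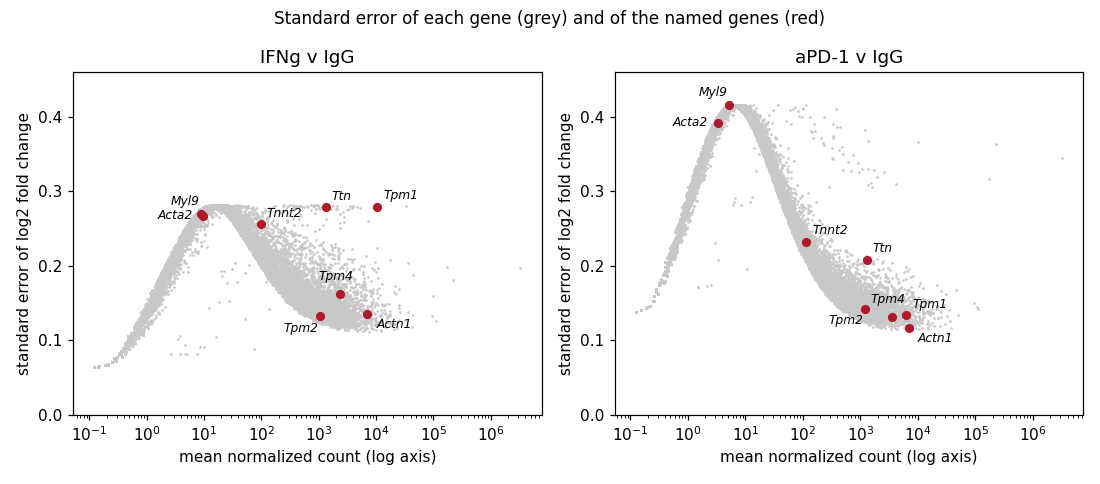
Standard error of the deposited log2 fold change against the mean normalized count (log axis) for all genes (grey) and 8 named genes (red) in IFNg v IgG and aPD-1 v IgG. In IFNg v IgG the SE of Ttn (0.278) and of Tpm1 (0.279) lie at the upper edge, close to the largest of the table, 0.281.

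Other genes of the pathway were counted in 4 lists. Their counts, and those of the marker lists below, stand beside the shares of all genes tested and were not tested against them. Those shares were 8.50% higher and 10.0% lower in aPD-1 v IgG, and 7.82% and 6.94% in aPD-1+CD8 v aPD-1. They were 2.73% and 1.38% in IFNg v IgG, and 8.39% and 7.13% in IFNg v aPD-1. Of 56 other sarcomere genes 45 matched the tables, most of them at low counts. In aPD-1 v IgG 0 of 23 tested rose and 1 fell, Ankrd1, which encodes a titin-binding ankyrin repeat protein, at -2.72 ± 0.36 in log2 (DESeq2 adjusted p = 3.5e-12) in the authors' deposited table. In aPD-1+CD8 v aPD-1 Ankrd1 rose by 3.07 ± 0.37 (adjusted p = 7.9e-15) and the embryonic myosin Myh3 was lower, at -1.09 ± 0.40 (adjusted p = 0.048), the 2 of 21 tested that passed in the authors' deposited table. In IFNg v IgG 1 of 20 rose, Ankrd1 by 0.78 ± 0.22 (adjusted p = 0.017), and 1 fell, the titin-binding ubiquitin ligase Trim63, at -0.98 ± 0.26 (adjusted p = 0.0084), in the authors' deposited table. Ankrd1 thus changed in the direction of Ttn in aPD-1 v IgG and aPD-1+CD8 v aPD-1 and opposite to it in IFNg v IgG. In IFNg v aPD-1 1 of 25 rose, Ankrd1 by 3.81 ± 0.39 (adjusted p = 8.1e-21), and 1 fell, Myh7b at -1.39 ± 0.46 (adjusted p = 0.022), in the authors' deposited table.

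Of 30 other smooth muscle and contractile genes in the tables, 6 of 26 tested rose and 4 fell in aPD-1 v IgG. The actin-binding scaffolds Pdlim5, at 1.38 ± 0.16 in log2, and Synpo, at 1.20 ± 0.16, rose in the authors' deposited table with Tagln2, at 0.91 ± 0.15 (DESeq2 adjusted p = 3.6e-08), and Nexn, an actin filament protein, at -1.08 ± 0.20, and smooth muscle myosin Myh11, at -2.28 ± 0.41 (adjusted p = 9.1e-07), fell. In aPD-1+CD8 v aPD-1 3 of 25 rose, among them Nexn at 0.99 ± 0.21 and Myh11 at 1.21 ± 0.41, and 5 fell, among them Pdlim5 at -1.49 ± 0.20, Synpo at -1.28 ± 0.18 and Tagln2 at -0.96 ± 0.16, in the authors' deposited table. In IFNg v IgG 0 of 25 rose and 2 fell, Myh11 at -1.30 ± 0.27 and Synpo at -0.55 ± 0.17, in the authors' deposited table. In IFNg v aPD-1 3 of 25 rose, among them Cnn2 at 0.91 ± 0.22 and Nexn at 0.92 ± 0.23, and 6 fell, among them Synpo at -1.81 ± 0.18 and Pdlim5 at -1.56 ± 0.17, in the authors' deposited table.

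Of 70 nonmuscle actin genes 8 of 65 tested rose and 11 fell in aPD-1 v IgG, 7 of 65 rose and 8 fell in aPD-1+CD8 v aPD-1, 0 of 65 rose and 2 fell in IFNg v IgG, and 6 of 66 rose and 3 fell in IFNg v aPD-1. By p in the authors' deposited table, the first that fell in aPD-1 v IgG were ezrin, Ezr, at -1.41 ± 0.14 in log2, filamin C, Flnc, at -1.02 ± 0.13, and the LIM protein Tes at -1.32 ± 0.19, and those that rose were Enah at 0.87 ± 0.21, Pls3 at 0.67 ± 0.17 and zyxin, Zyx, at 0.58 ± 0.16 (DESeq2 adjusted p between 7.7e-23 and 0.0028). The authors' deposited table for aPD-1+CD8 v aPD-1 had Ezr at 1.45 ± 0.16 and Tes at 1.17 ± 0.20. The 2 that fell in IFNg v IgG were the actin-severing cofilin Cfl2, at -0.57 ± 0.15, and the leukocyte plastin Lcp1, at -0.79 ± 0.25, in the authors' deposited table. Of 16 cofactors and regulators of the serum response factor, Mef2d rose by 0.51 ± 0.14 (adjusted p = 0.0026) and Phactr2 was lower, at -0.97 ± 0.37 (adjusted p = 0.048) in the authors' deposited table for aPD-1 v IgG. The mean count of Phactr2 there was 2.61, and at a mean count of at least 10 this list kept 1 call. In aPD-1+CD8 v aPD-1 0 of 12 tested rose and 1 fell, Mef2d, in IFNg v IgG 0 of 13 passed, and in IFNg v aPD-1 1 of 12 rose, Phactr1, and 2 fell, Mef2d and Mef2a. In aPD-1+CD8 v IgG no gene of any list passed. The list medians in aPD-1 v IgG were -0.08, 0.07, 0.03 and 0.05 in log2 in the order given, against 0.01 for all genes, and in the other 4 comparisons they lay between -0.13 and 0.28.

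Markers of cells that could carry these transcripts were read beside them. Of 20 markers of skeletal and cardiac muscle 12 matched, Ckm, muscle creatine kinase, had a mean count between 0.948 and 1.49 in the authors' deposited tables, and Myod1 is not analysed here. Their summed solved level, over 9 genes, was 332 normalized counts in aPD-1+CD8, 273 in IFNg, 295 in aPD-1 and 344 in IgG. Desmin, Des, gave 187, 98.0, 167 and 209 of these in the same groups, and its deposited value was -0.93 ± 0.21 in log2 in IFNg v IgG (DESeq2 adjusted p = 0.00034) and -0.33 ± 0.19 in aPD-1 v IgG (adjusted p = 0.23) in the authors' deposited tables. In IFNg v aPD-1 desmin was at -0.72 ± 0.26 in the authors' deposited table (adjusted p = 0.037), and no other marker of that list passed in any comparison. Without desmin the sum was 145, 175, 129 and 135 normalized counts in aPD-1+CD8, IFNg, aPD-1 and IgG, so that IFNg no longer lay under IgG. Nkx2-5, named after its values were seen, gave 106, 123, 93.9 and 81.6 of these in the same groups. That order thus rested largely on Nkx2-5. Desmin also stands among the pericyte markers. Pericyte and smooth muscle markers summed to 1073, 796, 921 and 1151 normalized counts over 9 genes in aPD-1+CD8, IFNg, aPD-1 and IgG, and 1 of 8 tested rose and 2 fell in aPD-1 v IgG, 1 of 7 rose and 1 fell in aPD-1+CD8 v aPD-1, 0 rose and 3 of 8 fell in IFNg v IgG, and 0 rose and 3 of 7 fell in IFNg v aPD-1. Fibroblast markers summed to 8483, 6826, 18220 and 8410 normalized counts over 11 genes, with 5 of 9 tested higher in aPD-1 v IgG, 4 of 9 lower in aPD-1+CD8 v aPD-1, 1 of 9 higher and 3 lower in IFNg v IgG and 6 of 9 lower in IFNg v aPD-1. The aPD-1 group had the highest fibroblast sum, as it had for Tpm4, and the lowest Ttn. The part of these cells in the changes of the 10 genes was not tested.

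The remaining marker lists were low. Endothelial markers summed to 105, 197, 188 and 111 normalized counts over 8 genes in aPD-1+CD8, IFNg, aPD-1 and IgG, and their only call was Cdh5, higher in aPD-1 v IgG and lower in aPD-1+CD8 v aPD-1, with Pecam1 at a mean count between 0.335 and 1.18 in the authors' deposited tables. Csf1r, a macrophage receptor, had a mean count between 21.1 and 191 in the authors' deposited tables. Macrophage markers summed to 214, 535, 213 and 235 over 11 genes, with 1 of 10 tested higher in aPD-1 v IgG, 0 of 10 in aPD-1+CD8 v aPD-1, 1 of 9 lower in IFNg v IgG, and 1 of 10 higher and 1 lower in IFNg v aPD-1. The high IFNg sum came from Csf1r, with a solved level of 27.9, 367, 20.4 and 27.0 in aPD-1+CD8, IFNg, aPD-1 and IgG and an empty p in both IFNg comparisons of the authors' deposited tables. Its deposited value in IFNg v IgG was 0.31 ± 0.18 in log2, while the ratio of the solved levels was 3.77. The level of 367 is thus uncertain, and which libraries gave it was not analysed here. Without Csf1r the macrophage sum was 186, 168, 193 and 208 over 10 genes, and IFNg was the lowest. Epithelial markers summed to between 8.19 and 22.5 normalized counts over the 4 genes with a level in every group. These were too few to read an order of groups from. Epcam had a mean count between 0.136 and 0.563 in the authors' deposited tables. The counts of epithelial markers thus lay low in these captured libraries. How well the probes took up these markers was not analysed here. Krt19, which is outside that sum, was their only call, at -1.07 ± 0.38 in log2 in the authors' deposited table for aPD-1 v IgG (DESeq2 adjusted p = 0.028). Its mean count there was 3.68.

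Among the 5705 other well counted genes, those whose 5 deposited log2 fold changes lay closest to Tpm4 were Lrp1, with a root mean square difference of 0.026, and Sema4c, with 0.027. Lrp1 had 0.84 in aPD-1 v IgG, -0.92 in aPD-1+CD8 v aPD-1 and -0.93 in IFNg v aPD-1 in the authors' deposited tables. No gene lay as close to Ttn, for which the nearest were Adamtsl3 at 0.498 and Trib3 at 0.584. This difference is absolute in log2 and tends to be larger for a gene with larger changes, such as Ttn. It is thus no sign that Ttn lacked genes of like pattern. Adamtsl3 had -1.80 in aPD-1 v IgG, 1.74 in aPD-1+CD8 v aPD-1, -0.59 in IFNg v IgG and 0.99 in IFNg v aPD-1 in the authors' deposited tables. The likeness was taken over 5 comparisons that share groups and is a description.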

How the data were processed

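RNA from 12 samples in 4 groups had been made into exome-capture libraries from 250 ng of total RNA, per the labels' protocols. The authors compared groups with DESeq2 on the mm9 build, per the submitters' processing notes. Not given in the sources used here: the versions, aligner, counter, annotation and strandedness. Each table holds, per the file headers, a mean normalized count (a signal: counts scaled by library size and averaged over both groups by the authors), the authors' log2 fold change with its SE, a Wald score, and a p-value with an adjusted p-value, all as deposited. The tables hold 0 columns of single samples, so depth per library is unknown, and precision is seen only through the SE, with the limit given above.

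From these the calls, list counts, 95% intervals (1.96 SE) and group levels were computed with Python 3.11.15, pandas 2.3.3, numpy 2.4.6 and scipy 1.17.1. The solving of levels and the settings for calls were tested on simulated data. Levels were checked there only for genes whose simulated level reached 100 in every group, so lower levels were not checked. List counts and intervals were not tested in this way. Levels were solved by adding and subtracting the tables' mean counts after scaling each table to aPD-1 v IgG by its median ratio; that scaling was chosen after seeing the data. A gene with an empty adjusted p was not counted as tested. The members and the 10 companion lists were chosen with earlier results of these data known: other sarcomere genes; other smooth muscle and contractile genes; nonmuscle actin genes; serum response factor cofactors; markers of muscle, pericytes and smooth muscle, fibroblasts, endothelium, epithelium and macrophages. Of each list the 3 genes with the smallest p per direction could be named (1 of them is not reported here), and for a gene changed in at least 3 comparisons the 2 nearest in the 5 fold changes among genes with mean counts reaching 100. Symbols were matched as written or through an older symbol. Transcript lengths, overlaps and shared stretches of 50 bases come from GENCODE M21, of another build than mm9, and motif windows from RefSeq. The 6 alternative settings for calls were an adjusted p under 0.01, a log2 change of at least 1, no filter on low counts, a mean count of at least 10, an empirical null and centring on the median.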

Additional observations from a re-analysis of the deposited data

How the results depend on the processing

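The counts of changed genes were 5 in aPD-1 v IgG, 2 in aPD-1+CD8 v aPD-1, 3 in IFNg v IgG, 2 in IFNg v aPD-1 and 0 in aPD-1+CD8 v IgG. An adjusted p under 0.01, no filter on low counts and centring on the median left each of these counts as it was; a mean count of at least 10 left 2 in IFNg v IgG, since Acta2 was not tested, and moved no other count. A log2 change of at least 1 left 2 in aPD-1 v IgG, 1 in aPD-1+CD8 v aPD-1 and 1 in IFNg v aPD-1. The empirical null left 1, 1 and 0 in the same order, and 2 in IFNg v IgG; the factor it divides scores by was 2.21, 1.99, 2.00 and 1.29 in that order, and it left 191, 147, 271 and 220 of 2229, 1706, 1903 and 471 calls among all genes; in aPD-1+CD8 v IgG it divided by 0.595 and made 14 calls in place of 0, none of the set. A log2 change of at least 1 left 707, 656, 860 and 190 calls among all genes in the same order, and an adjusted p under 0.01 left 1099 in aPD-1+CD8 v aPD-1. Of 50 list counts, 12 moved by over 1.5 times at an adjusted p under 0.01, 15 with a log2 change of at least 1, 3 without the filter, 4 at a mean count of at least 10, 27 under the empirical null and 2 when centred. With no scaling from table to table, 15 of 37 solved levels moved by more than the SE of the fold change in aPD-1 v IgG, among them Ttn, to 1334 in aPD-1+CD8 and 423 in aPD-1. Scaling by 2232 genes with small changes moved 2, both of Tagln near 0, and solving from the IFNg tables moved 0 of 18. That last setting shares the aPD-1 v IgG means and so checks the scaling alone. Leaving out a library could not be run, since the tables hold no single libraries. No paired analysis was possible because the columns carry no sample. The low counts of the smooth muscle genes limit what could be detected.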
